A study of Oryza sativa Japonica Group with 20 samples.

Results

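The layout of 2 histone marks relative to each other in wild-type rice root tips was described from 4 of the 20 samples of the series, the WT H3K27me3 and WT H3K4me3 libraries, with 2 replicates of each mark. The members were chosen by their labels and not by a measured value. The samples are CUT&Tag libraries, in which a transposase tags the DNA where an antibody has bound, made from nuclei of root tips of about 0.8 cm taken 7 days after germination from the ZH11 line. The plt345 group, set beside the WT layout once, is a triple mutant of PLT3, PLT4 and PLT5 with 2 libraries per mark, and WT libraries of EMF2b and PLT5 (2 each) served as further readouts. A root tip holds many cell types, so peaks of both marks at a place do not show that a cell or a nucleosome carried both.

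H3K27me3 is laid down by Polycomb repressive complex PRC2 and marks genes held silent, in plants often over the whole gene body. H3K4me3 is placed at the start of transcribed genes and in rice is removed by demethylases of the JmjC type such as JMJ703. Places that carry both are called bivalent and are the subject named in the title of the series. EMF2b is a PRC2 subunit of rice, and PLT proteins (PLETHORA) are AP2-type transcription factors of root meristems.

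A base was counted for a mark when the authors' peaks of both of its libraries covered it, and each unbroken run of such bases is called a domain. The H3K27me3 lists held 23957 and 24185 peaks covering 32.0 and 31.1 Mb, and the H3K4me3 lists held 25762 and 25165 peaks covering 24.6 and 24.2 Mb. The shared bases came to 22252 H3K27me3 domains over 27.2 Mb, which was 84.9% and 87.4% of the length called in the single libraries. For H3K4me3 they came to 24249 domains over 22.0 Mb, or 89.6% and 90.9% of the single libraries. The lists hold no read counts, so depth is unknown. No source used here names the assembly of the coordinates, and domains were therefore named by position only, with no gene or sequence.

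The marks were mostly apart. Of the H3K27me3 domains, 4428 (19.9%, 95% Wilson interval 19.4 to 20.4%) overlapped an H3K4me3 domain by at least 1 bp, 1176 (5.28%) adjoined one with a gap below 1000 bp, and 16648 (74.8%) were separate. Of the H3K4me3 domains, 4500 (18.6%, interval 18.1 to 19.1%) overlapped H3K27me3, 1253 (5.17%) adjoined it and 18496 (76.3%) were separate. The intervals cover counting error only, and domains are not replicates. The spread between libraries was seen in the 4 combinations of 1 H3K27me3 with 1 H3K4me3 library, where 22.9 to 23.6% of H3K27me3 and 22.3 to 22.4% of H3K4me3 peaks overlapped. These values lie above those of the shared bases, which are shorter, and differ little from each other.

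By length, H3K27me3 and H3K4me3 shared 2.17 Mb. That was 7.98% of H3K27me3 bases, while H3K4me3 covered 5.90% of the 373 Mb from the start of each chromosome to its last peak. It was 9.86% of H3K4me3 bases, while H3K27me3 covered 7.29% of the same span. The shared length was therefore 1.35 times the product of the 2 shares. The product serves only as a scale and not as a test, since genes and peaks are not spread evenly. With all domains that carried EMF2b or PLT5 left out, an alternative chosen after seeing the data, the same ratio was 0.794. Of the H3K27me3 bases that were left, 2.97% lay under H3K4me3, which then covered 3.74% of the span. This choice took out 67.6% of overlapping but 14.0% of separate H3K27me3 domains. For H3K4me3 it took out 65.2% and 22.8%. A lower ratio is thus built into the choice, which cannot show whether the marks avoid each other.

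**Figure D1:**
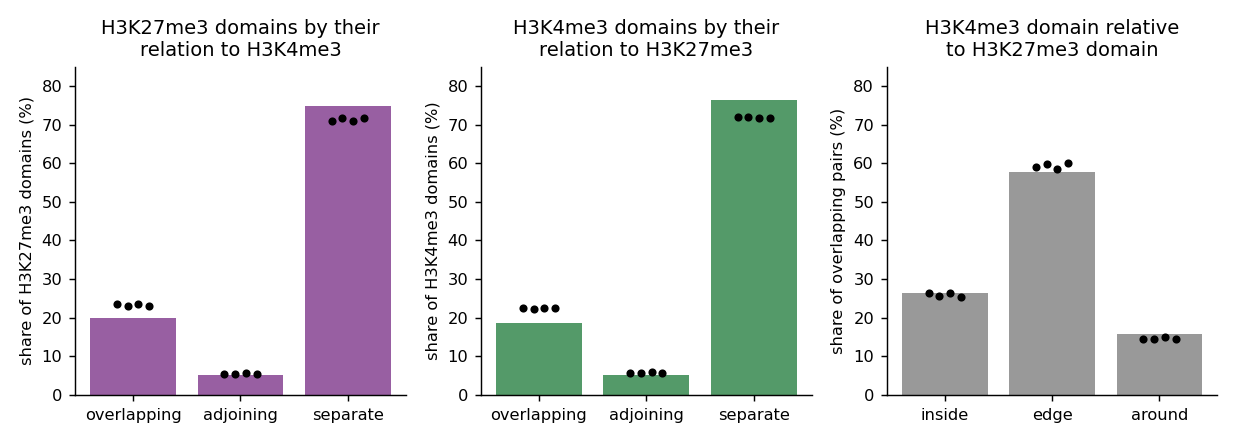
Shares of H3K27me3 domains (left) and H3K4me3 domains (centre) that overlap, adjoin (gap below 1000 bp) or are separate from the other mark, and shares of the overlapping pairs with H3K4me3 inside, at an edge of or around H3K27me3 (right), in percent. Bars give domains of bases called in both libraries, dots the 4 combinations of single libraries; overlap was 19.9% and 18.6% of domains, and 57.8% of pairs met at an edge.

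Where the marks met, they met most often at an edge. The overlapping domains formed 4586 pairs. In 2651 pairs (57.8%, interval 56.4 to 59.2%) the H3K4me3 domain crossed 1 end of the H3K27me3 domain. In 1215 pairs (26.5%, 25.2 to 27.8%) it lay inside H3K27me3, and in 720 pairs (15.7%, 14.7 to 16.8%) it reached around the H3K27me3 domain. Across the 4 combinations of single libraries the shares were 58.5 to 60.1%, 25.3 to 26.5% and 14.5 to 14.9%, so the order was the same in each. The position of the ends was less stable for single pairs: the relation was the same in both same-numbered pairs of libraries and in their shared bases for 78.9% of inside, 81.6% of edge and 48.2% of around pairs. When ends within 100 bp were taken as flush, 38.1% of pairs were at an edge, 35.0% inside and 26.9% around.

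Most overlapping domains met a single partner. This held for 4278 of the 4428 H3K27me3 domains, and the 150 with 2 or more H3K4me3 domains had a median width of 2160 bp. It held for 4414 of the 4500 H3K4me3 domains, and the 86 others met 2 H3K27me3 domains and had a median width of 1810 bp. H3K4me3 covered 1 end of 2617 overlapping H3K27me3 domains, both ends of 742 and neither end of 1069. Only 21 of the 742 had H3K4me3 at both ends and an H3K4me3-free middle, so H3K27me3 framed by H3K4me3 was rare. The mirror case, H3K4me3 with H3K27me3 at both ends and not in the middle, was found at 66 H3K4me3 domains.

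Each relation had its own scale. In edge pairs the median H3K27me3 domain was 798 bp and the median H3K4me3 domain 972 bp, and they shared a median of 328 bp, leaving 348 bp of H3K27me3 and 509 bp of H3K4me3 beyond the overlap. H3K4me3 crossed the start of H3K27me3 in 1356 edge pairs and the end in 1295, so the lists held no preferred side along the chromosome. In inside pairs a short H3K4me3 domain, of median 486 bp, lay in a wide H3K27me3 domain, of median 1666 bp. The median distance was 138 bp to the nearer and 806 bp to the farther H3K27me3 end, and in 42.5% of inside pairs the nearer end was within 100 bp. H3K4me3 more than 500 bp from both ends was found in 158 inside pairs, and in 52.7% of inside pairs the H3K4me3 midpoint lay in the middle of 3 equal stretches of the H3K27me3 domain. In around pairs the scale was turned, with H3K27me3 of median 385 bp in H3K4me3 of median 1170 bp, and a median of 69.0 bp to the nearer end.

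The shared stretch was short. Its median over all pairs was 381 bp, with the middle 50% of pairs between 272 and 582 bp, and the shortest peaks in the 4 lists were 273 to 295 bp. In 410 pairs (8.94%) the marks shared less than 150 bp, and 373 of these were edge pairs. In 341 pairs (7.44%) they shared 1000 bp or more, 184 of them inside pairs. Inside pairs were 26.5% of all pairs and held 35.3% of the shared bases, while edge pairs held 49.6%, and around pairs held 0.327 of the 2.17 Mb.

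**Figure D2:**
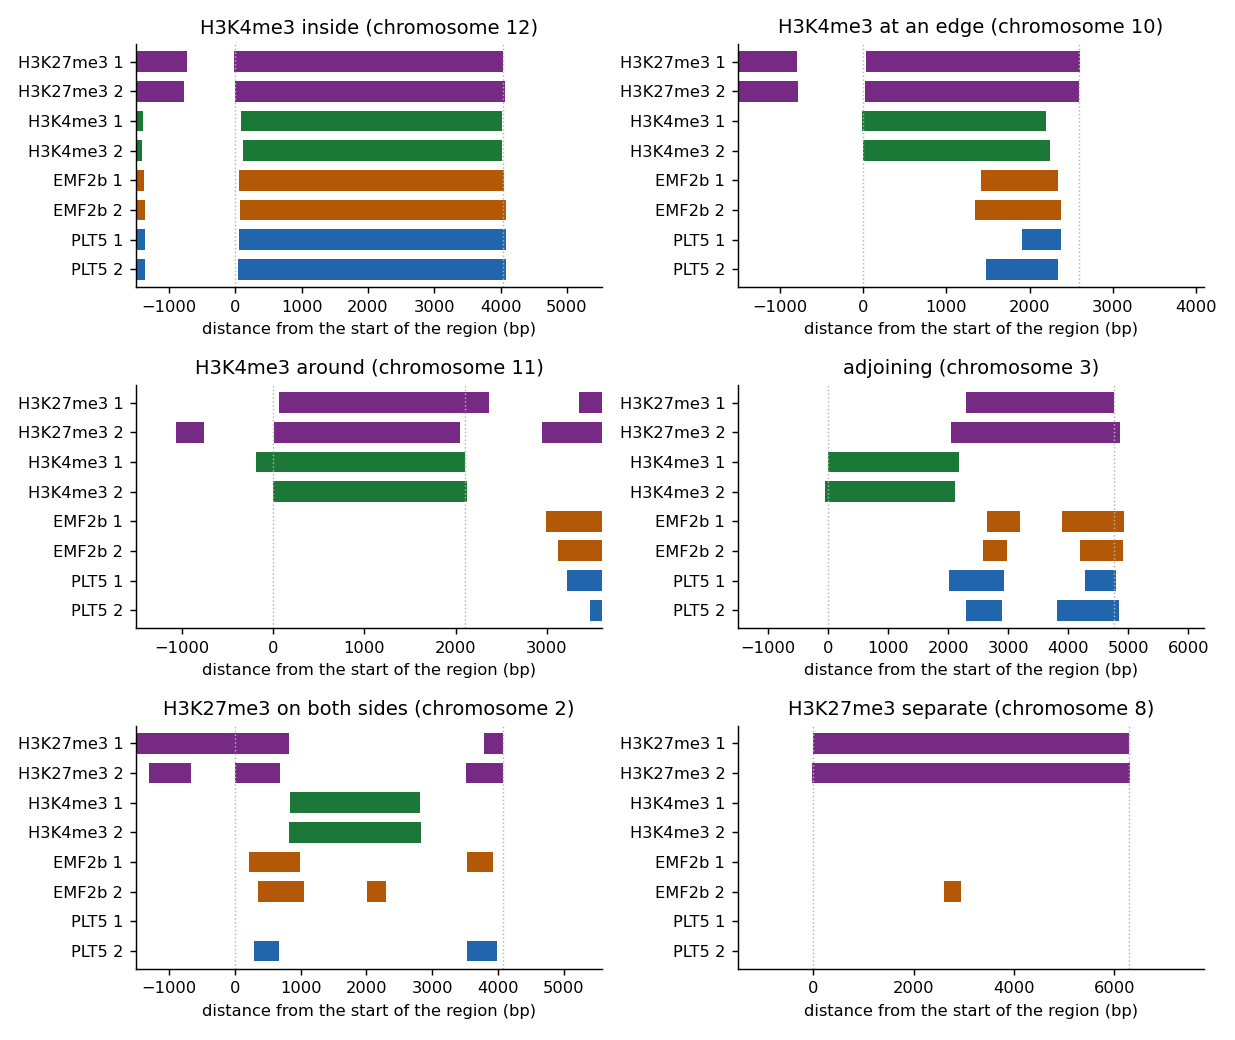
Peaks of each WT library (rows, replicates 1 and 2) at the first region by rank of 6 layouts; the x axis is the distance in bp from the start of the region, dotted lines mark the region, and bars are the authors' peaks. At the inside region on chromosome 12 the peaks of all 8 libraries cover almost the whole region of 4030 bp, while the separate H3K27me3 region on chromosome 8 holds no H3K4me3 or PLT5 peak.

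The 4 longest overlaps of each relation show what these layouts look like. The longest inside pair lay on chromosome 12 from 8540456 to 8544485, where a 3911 bp H3K4me3 domain filled a 4030 bp H3K27me3 domain. The peaks of all 8 WT libraries covered nearly all of it: H3K27me3 covered 4030 bp in each replicate, H3K4me3 3934 and 3911 bp, EMF2b 3970 and 3965 bp, and PLT5 3982 and 3989 bp. The highest fold enrichments there were low, at 1.95 and 1.94 for H3K27me3 and 2.59 and 2.58 for H3K4me3. EMF2b and PLT5 also covered most of the other 3: on chromosome 12 from 8530372 to 8533422, 2957 bp were shared and EMF2b and PLT5 each covered 3051 bp in both replicates. On chromosome 1 from 33516453 to 33522361, 3131 bp of a 5909 bp H3K27me3 domain were shared, with EMF2b over 4707 and 4734 bp. From 33534831 to 33539492, 3024 of 4662 bp were shared, with EMF2b over 4643 and 4662 bp. The longest overlaps were thus 2 neighbouring pairs on each of 2 chromosomes, all under all 4 antibodies. IgG libraries were not analysed here, so the signal of a control antibody at these places was not tested.

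Edge overlaps were more varied. The longest, on chromosome 10 from 657566 to 660158, shared 2153 bp, with H3K27me3 over 2552 and 2568 bp and H3K4me3 over 2194 and 2249 bp. EMF2b covered 924 and 1026 bp of the region and PLT5 464 and 867 bp, less than either histone mark. On chromosome 5 from 23494898 to 23497773, 2100 bp were shared, EMF2b covered 3 and 67 bp and PLT5 none. On chromosome 9 from 13689005 to 13691437, 2096 bp were shared, and on chromosome 2 from 16183287 to 16186072, 2059 bp. EMF2b peaks covered 326 and 323 bp of the region on chromosome 9 and ran on past its end. On chromosome 2 they covered 330 and 230 bp at different places, so no base there had EMF2b in both libraries, and PLT5 was called in replicate 1 only. The edge relation held in both same-numbered pairs of libraries at 3 of these 4 regions, and on chromosome 9 H3K4me3 lay inside H3K27me3 in replicate 2.

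The longest around pair, on chromosome 11 from 2466589 to 2468689, shared 1983 bp and carried neither EMF2b nor PLT5. H3K27me3 covered 2040 and 2033 bp of it. The pair on chromosome 4 from 28037744 to 28039858 shared 1897 bp and was under EMF2b for 1810 and 1866 bp and under PLT5 for 1986 and 1300 bp. On chromosome 6 from 5884561 to 5886455 the marks shared 1433 bp, and on chromosome 10 from 789732 to 791263, 1403 bp. The last of these had the highest H3K4me3 folds of the named overlaps, 6.81 and 6.98, beside H3K27me3 folds of 2.13 and 2.50. In single libraries the around relation was unstable at all 4 regions: in replicate 1 the H3K27me3 peak ran past an H3K4me3 end at each, and on chromosome 10 it did so in replicate 2 as well.

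Adjoining domains were fewer than overlapping ones and had no sharp limit at 1000 bp. H3K27me3 domains numbered 301 at gaps below 250 bp, 167 from 250 to 500 bp, 289 from 500 to 750 bp and 419 from 750 to 1000 bp, and 411 lay just outside, from 1000 to 1250 bp. For H3K4me3 the counts were 318, 210, 320 and 405, with 372 just outside. Both marks thus had their lowest count at gaps of 250 to 500 bp, and the domains just inside and just outside the limit were alike in number. Their median widths were close for H3K4me3, at 757 and 768 bp. For H3K27me3 they were 837 and 939 bp, with 810 bp at gaps of 1250 to 1500 bp. The neighbour was on 1 side for 1218 of the 1253 adjoining H3K4me3 domains, and 35 had H3K27me3 within 1000 bp on both sides. Among H3K27me3 domains 19 of 1176 had H3K4me3 on both sides. Separate domains were far away, with a median gap of 8382 bp from H3K27me3 to the nearest H3K4me3 and of 12158 bp from H3K4me3 to the nearest H3K27me3.

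The gaps depend on taking bases called in both libraries. The H3K27me3 peak that held an adjoining domain overlapped an H3K4me3 peak of the same-numbered library at 291 of the 1176 domains (24.7%) in replicate 1 and at 265 (22.5%) in replicate 2. It did so in both at 52 and in neither at 672 (57.1%). For the 1253 adjoining H3K4me3 domains the counts were 274, 269, 55 and 765. The adjoining pairs with the widest members were of both kinds. On chromosome 3 an H3K4me3 domain of 2117 bp lay 173 bp before an H3K27me3 domain of 2467 bp, in the region from 33790873 to 33795629. On chromosome 10 from 19983697 to 19988844 the H3K27me3 domain, of 2847 bp, came first and the gap was 194 bp. Peaks of the marks overlapped in replicate 2 on chromosome 3 and in both replicates on chromosome 10. Both regions carried EMF2b and PLT5 peaks in every library. Wider gaps, of 846 and 816 bp, divided the pairs on chromosome 12 from 2546073 to 2551984 and on chromosome 1 from 8083791 to 8088858, where H3K27me3 replicate 2 had a further peak over the far end of H3K4me3. The widest H3K4me3 domain between H3K27me3 domains, of 1979 bp, lay on chromosome 2 from 26046533 to 26050609, followed by those of 1740 bp on chromosome 7 from 87832 to 91275, 1620 bp on chromosome 1 from 31888019 to 31894402 and 1598 bp on chromosome 11 from 19673320 to 19677883. H3K27me3 replicates differed in these 4 regions, at 1117 and 1261, 1686 and 1089, 3190 and 4372, and 2144 and 1541 bp covered. The peak that held the H3K4me3 domain overlapped a same-numbered H3K27me3 peak in both replicates on chromosome 7. It did so in replicate 2 on chromosome 1, in replicate 1 on chromosome 11 and in neither on chromosome 2.

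Between their own ends, the widest separate domains lacked the other mark in every library. H3K27me3 covered 6282 bp on chromosome 8 from 11373287 to 11379568, 5601 bp on chromosome 7 from 5404583 to 5410183 and 5557 bp on chromosome 4 from 17341712 to 17347268, without H3K4me3 or PLT5. The only peak of another antibody in these 3 was an EMF2b peak of 340 bp in replicate 2 on chromosome 8. The widest separate H3K4me3 domains were 3294 bp on chromosome 10 from 22857028 to 22860321, 3251 bp on chromosome 2 from 4182609 to 4185859 and 3194 bp on chromosome 1 from 10099977 to 10103170. The first had EMF2b and PLT5 in both libraries, the second had neither, and the third had EMF2b in replicate 2 only.

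H3K27me3 domains with H3K4me3 were narrower than those without it. The median width was 813 bp in overlapping, 858 bp in adjoining and 999 bp in separate H3K27me3 domains. Below 500 bp were 27.5% of overlapping and 22.2% of separate ones. Over the 4 combinations of single libraries the medians were 874 to 917 bp in overlapping and 1041 to 1107 bp in separate peaks, ranges that did not overlap. Wide domains differed little, with 18.0% of overlapping and 19.0% of separate ones at 2000 bp or more. The narrowing went with EMF2b and PLT5: among domains with neither, the median was 968 bp with and 1001 bp without H3K4me3 overlap, and among domains with EMF2b or PLT5 it was 765 and 968 bp. Widths of overlapping domains also followed the relation, since a domain inside another has to be the shorter of the pair.

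H3K4me3 domains had nearly the same median with and without H3K27me3, 820 and 821 bp, and adjoining ones were narrower, at 746 bp. Their spread differed: the middle 50% ran from 498 to 1322 bp in overlapping and from 537 to 1167 bp in separate domains, and 2000 bp was reached by 270 of the 4500 overlapping domains and by 493 of the 18496 separate ones (2.67%). The share that overlapped H3K27me3 was lowest at middling widths, with 20.6% of domains below 500 bp, 15.5% from 500 to 1000 bp, 19.4% from 1000 to 2000 bp, 32.9% of the 778 from 2000 to 3000 bp and 14 of the 25 that were wider. A wider domain has more bases that can meet the other mark, and the picture by bases differed. The share of H3K4me3 bases under H3K27me3 was 16.9% below 500 bp, 9.89% from 500 to 1000 bp, 8.28% from 1000 to 2000 bp and 10.9% from 2000 to 3000 bp. Of H3K27me3 domains, 23.3% below 500 bp overlapped H3K4me3, 16.5% from 1000 to 2000 bp and 24.0% of the 167 at 4000 bp or more. By bases H3K27me3 had 18.8% under H3K4me3 below 500 bp, 6.67% from 1000 to 2000 bp, 4.61% from 3000 to 4000 bp and 7.52% beyond.

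**Figure D3:**
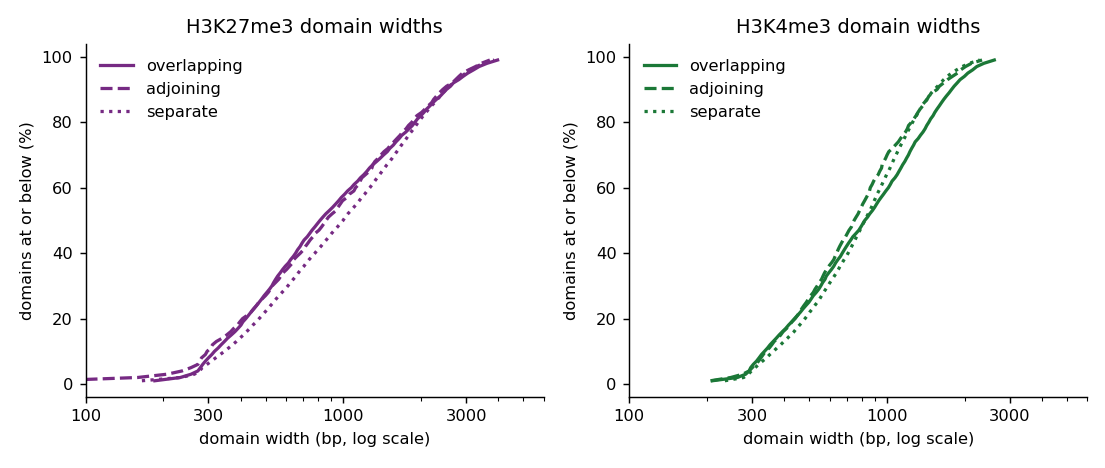
Cumulative share of domains (y axis, percent) by width (x axis, bp, log scale) for H3K27me3 (left) and H3K4me3 (right), with separate curves for overlapping, adjoining and separate domains. The overlapping H3K27me3 curve lies left of the separate one (medians 813 and 999 bp), while the H3K4me3 curves cross near their medians of 820 and 821 bp.

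Read from the ends of domains of all widths, each mark was most frequent just inside the ends of the other. H3K4me3 covered 11.3% of positions 100 bp inside H3K27me3 ends, 9.17% at the first base outside, 6.13% at 250 bp outside and 5.14% at 1000 bp outside, against 5.90% of the span. Deeper in, 1000 bp from the end, it covered 4.46% of positions, less than the span. The surroundings were also below the span, with a lowest value of 4.62% at 2650 bp outside. The low level was thus not particular to the interior. By bases, H3K27me3 domains of 4000 bp or more had 7.52% under H3K4me3, above the span. H3K27me3 around H3K4me3 ends also had its top near the end, at 11.9% for 150 bp inside, with 10.5% at the first base outside and 5.42% at 1000 bp outside, against 7.29% of the span. Deeper in, at 1000 bp inside, it covered 114 of 1606 positions (7.1%), above its value at 1000 bp outside. H3K4me3 around H3K27me3 ends had 4.46% and 5.14% at the same distances. Its levels inside and farther outside overlapped, with 4.75% at 1200 bp inside and 4.62% at 2650 bp outside. H3K27me3 had its lowest value outside H3K4me3 ends, 5.07%, at 700 bp. Only wide domains reach the deeper positions. H3K27me3 ends numbered 43878 at 100 bp inside and 8336 at 1000 bp, and H3K4me3 ends 46364 at 150 bp and 1606 at 1000 bp. Domains below 500 bp had the larger share of bases under the other mark, so the fall inward partly sets narrow against wide domains. The profile within a single width class was not tested.

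**Figure D4:**
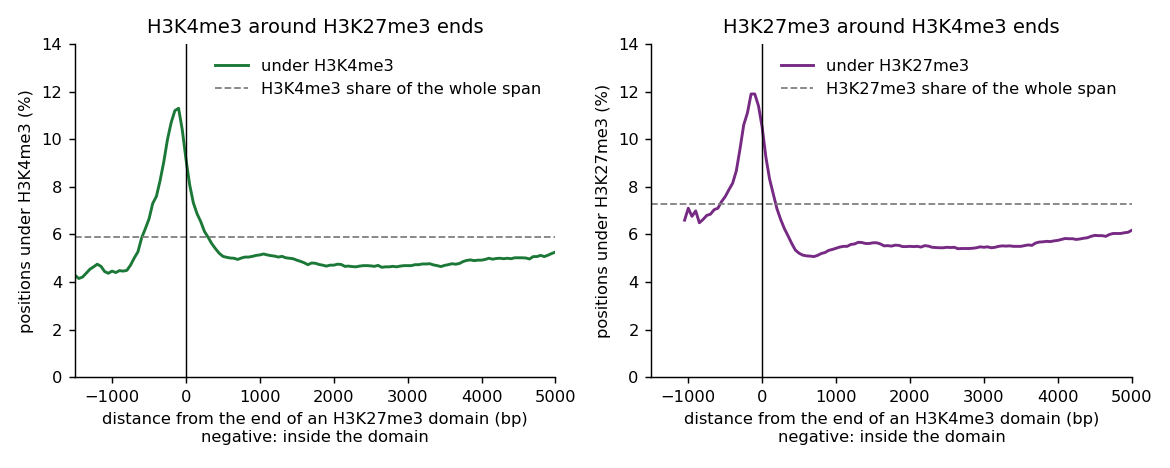
Share of positions under the other mark (y axis, percent) by distance from the ends of H3K27me3 domains (left) and of H3K4me3 domains (right) in bp, negative inside the domain and both ends pooled; distances with fewer than 1000 ends are not drawn. Both curves have their top just inside the end, 11.3% and 11.9%, and the dashed lines give the share of the whole span, 5.90% and 7.29%. Deeper positions come from wider domains only.

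The authors' fold enrichments and q-values were compared only within a list. In overlapping peaks the median fold was higher for H3K27me3 and lower for H3K4me3, and the median −log10 q was lower for both. H3K27me3 peaks over H3K4me3 domains had a median fold of 2.26 and 2.33 in replicates 1 and 2, against 2.09 and 2.13 for separate peaks. Their median −log10 q was 3.16 and 3.31 against 3.43 and 3.43. H3K4me3 peaks over H3K27me3 had a median fold of 3.68 and 3.75 against 3.83 and 3.87 for separate peaks, and a median −log10 q of 17.2 and 17.8 against 21.1 and 21.1. Fold for H3K27me3 was higher, and −log10 q for H3K4me3 lower, in overlapping than in separate peaks in each of 4 width classes of both libraries. The other measures turned with width: among the narrowest 25% of peaks, overlapping ones had the higher −log10 q for H3K27me3 (2.31 and 2.53 against 2.18 and 2.29) and the higher fold for H3K4me3 (3.20 and 3.20 against 3.09 and 3.10). The share of H3K4me3 peaks that overlapped H3K27me3 went from 25.1% and 24.7% in the lowest 25% by q to 15.5% and 15.5% in the highest 25%, so weaker H3K4me3 peaks carried H3K27me3 more often in both libraries. For H3K27me3 the same shares were 23.1% and 20.9% in the lowest and 19.4% and 20.4% in the highest 25%. Replicates agreed somewhat less under the other mark: of the H3K27me3 bases of replicate 2, 83.6% were also called in replicate 1 under H3K4me3 and 87.7% outside it. Of the H3K4me3 bases of replicate 2, 87.9% were called in replicate 1 under H3K27me3 and 91.2% outside it, and replicate 1 set against replicate 2 gave the same order for both marks.

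EMF2b and PLT5 lay on bases with both marks far more often than on bases with either alone. EMF2b covered 43.8% of bases under both marks, 5.98% of those under H3K27me3 only and 7.43% of those under H3K4me3 only, against 2.04% of the span. PLT5 covered 45.7%, 3.43% and 7.26%, against 1.22% of the span. By domain, 58.3% of overlapping, 26.8% of adjoining and 12.3% of separate H3K27me3 domains had EMF2b in both libraries, beside 22.2% of all H3K27me3 domains. PLT5 was on 57.5%, 17.3% and 7.05%, beside 17.6% of all. For H3K4me3 domains EMF2b was on 56.0% of overlapping, 17.4% of adjoining and 18.6% of separate ones, beside 25.4% of all, and PLT5 on 56.0%, 12.8% and 15.9%, beside 23.2% of all. Adjoining therefore stood between overlapping and separate for H3K27me3, and below separate for H3K4me3. In single EMF2b and PLT5 libraries the order of overlapping over the other classes was the same, with 62.6 to 67.1% of overlapping against 9.05 to 15.3% of separate H3K27me3 domains.

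**Figure D5:**
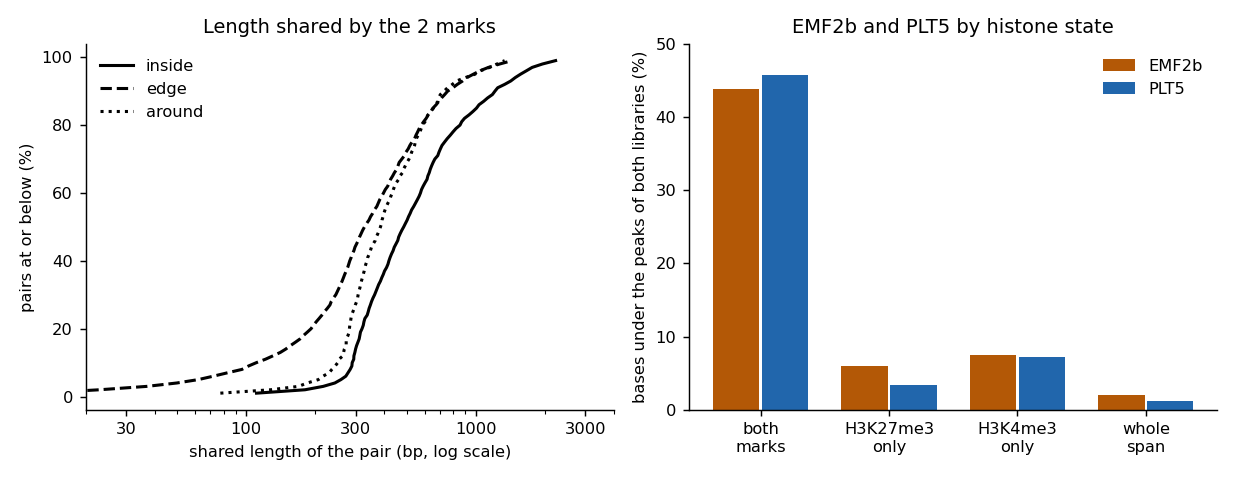
Left, cumulative share of overlapping pairs (y axis, percent) by the length the marks share (x axis, bp, log scale) for H3K4me3 inside, at an edge of and around H3K27me3; medians are 486, 328 and 385 bp. Right, share of bases (y axis, percent) under EMF2b and PLT5 peaks of both libraries for bases with both marks, H3K27me3 only, H3K4me3 only and the whole span, with 43.8% and 45.7% under both marks.

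Binding was denser in the shared stretch than in the rest of the pair, where it was also found. In edge pairs EMF2b covered 43.6% of the shared bases, 15.2% of the H3K27me3 bases beyond them and 7.45% of the H3K4me3 bases beyond them, and PLT5 covered 46.3%, 9.87% and 8.12%. Inside pairs had 37.5% of shared bases and 12.6% of the surrounding H3K27me3 under EMF2b. Around pairs were highest, with 59.4% of shared bases under EMF2b and 62.9% under PLT5, and 17.4% and 18.8% of the H3K4me3 bases outside. By pair, EMF2b touched the shared stretch in 51.5% of inside, 51.5% of edge and 70.3% of around pairs, beside 54.5% of all pairs, and PLT5 in 50.3%, 51.7% and 73.1%, beside 54.7% of all.

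EMF2b and PLT5 mostly came together: 2083 pairs (45.4%) had both on the shared stretch, 415 EMF2b only, 425 PLT5 only and 1663 (36.3%) neither. In 1183 pairs (25.8%) both covered at least 90% of the shared stretch, with 43.6% of around, 22.8% of edge and 21.8% of inside pairs. Pairs with both had a median H3K27me3 width of 725 bp and H3K4me3 width of 949 bp, and pairs with neither 1138 and 707 bp. The relation moved with this: 22.3% of pairs with both and 9.20% of pairs with neither had H3K4me3 around H3K27me3. The part of a signal common to all antibodies in these overlaps was not tested.

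The shares of overlap differed between whole chromosomes. The combinations of single libraries share libraries and cover all chromosomes, so their range gives no spread for a single chromosome. Positions within a chromosome were not compared. Between 15.9% of H3K27me3 domains (chromosome 11) and 23.8% (chromosome 1) overlapped H3K4me3, and between 15.9% of H3K4me3 domains (chromosome 5) and 23.1% (chromosome 11) overlapped H3K27me3. On chromosome 11 these were 312 of 1962 H3K27me3 and 313 of 1354 H3K4me3 domains. It was thus lowest by H3K27me3 and highest by H3K4me3 with nearly equal counts of overlapping domains. Edge pairs were the most frequent on each of the 12 chromosomes, at 48.4% (chromosome 12) to 61.1% (chromosome 9).

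In plt345 the same relations were found in fewer pairs. Same-numbered libraries of H3K27me3 and H3K4me3 shared 2.37 ± 0.0301 Mb in plt345 and 2.99 ± 0.0554 Mb in WT (SD, n = 2 pairs each, exact two-sided permutation p = 0.333, the smallest that 2 against 2 allow). Of H3K4me3 peaks 17.6 ± 0.265% overlapped H3K27me3 in plt345 and 22.4 ± 0.0234% in WT (exact permutation p = 0.333). Of H3K27me3 peaks 22.1 ± 0.495% overlapped H3K4me3 in plt345 and 23.3 ± 0.479% in WT (exact permutation p = 0.333). H3K4me3 peaks adjoining H3K27me3 were more in plt345, 1596 ± 10.6 against 1463 ± 7.07 (exact permutation p = 0.333). Inside pairs were 27.6 ± 0.835% of pairs in plt345 and 25.8 ± 0.689% in WT (exact permutation p = 0.333). Around pairs were 12.2 ± 0.372% of pairs in plt345 and 14.6 ± 0.0209% in WT (exact permutation p = 0.333), while edge pairs were 60.2 ± 1.21% in plt345 and 59.6 ± 0.710% in WT (exact permutation p = 0.667). No difference can reach the usual threshold with 2 pairs per genotype. The plt345 H3K27me3 lists held fewer peaks, 20841 and 20942, against 23957 and 24185 in WT. The plt345 H3K4me3 lists held more, 27182 and 26841, against 25762 and 25165 in WT. Fewer H3K27me3 and more H3K4me3 peaks can each lower the share of H3K4me3 peaks that overlap, and their part was not tested.

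The WT pairs differed in which mark was still called at their shared stretch in plt345. Some shared base was still under both marks in both plt345 libraries of each for 61.6% of inside, 54.5% of edge and 45.0% of around pairs, beside 54.9% of all pairs. The pairs were chosen as called in both WT libraries of each mark, so any other libraries could only match or fall below WT. The reverse, plt345 pairs looked up in WT, was not computed, so these shares do not measure a loss in the mutant. H3K27me3 was in neither plt345 library at 1.89% of inside, 15.1% of edge and 25.1% of around pairs, beside 13.2% of all pairs. H3K4me3 was in neither at 21.9%, 10.4% and 3.19%, beside 12.3% of all pairs. The same shares over domains without the other mark were not computed, so overlaps cannot be set against the rest of the lists. Whole H3K27me3 lists covered 27.6 and 27.7 Mb in plt345 and 32.0 and 31.1 Mb in WT. At 54 pairs (1.18%) both marks were called in both plt345 libraries on the stretch without a shared base. In inside and around pairs the mark more often missing was thus the narrower of the pair, whose whole length lies in the shared stretch. The part of peak width in this was not tested.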

How the data were processed

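CUT&Tag peak lists of WT H3K27me3, H3K4me3, EMF2b and PLT5 and of plt345 H3K27me3 and H3K4me3 were used, 2 libraries each. The submitters' processing notes name MACS2 2.2.7.1, Bowtie2 2.4.4, Trim Galore 0.6.6 and deepTools 3.5.0 without their roles. Build and control library are not given there. Each library has its own deposited list, so peaks were not called on pooled samples. The deposited fold enrichment is a ratio whose background no source used here describes, and the deposited −log10 q is the authors' too. H3K27me3 lists are broad peaks and H3K4me3 lists narrow peaks, so widths of the marks are not on 1 scale. Lists from separate calls were not tested against each other by fold or q.

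Bases called in both libraries of a mark were joined into domains. Pairs overlapped at 1 bp or more and adjoined at a gap below 1000 bp. Inside, around and edge follow from the ends of both domains, and a pair with equal ends counts as inside. Shares have Wilson 95% intervals. The class and relation rules were checked on simulated domains with known layout. Named regions are the 4 longest overlaps per relation, the 4 adjoining pairs with the widest narrower member, the 4 widest H3K4me3 domains with H3K27me3 on both sides and the 3 widest separate domains per mark, on chromosomes 1 to 12; 13 H3K27me3 and 14 H3K4me3 domains on unplaced sequence entered the counts only. The members, lists and rules were chosen with earlier results of these data known. Separate plants are not stated for the replicates, whose spread may thus be technical. Python 3.11.15, NumPy 2.4.6, SciPy 1.17.1 and pandas 2.3.3 were used.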

Additional observations from a re-analysis of the deposited data

How the results depend on the processing

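Of 154 values under 16 alternative settings, 88 stayed within 1.5 times for counts, or within 1 SD of the same-numbered library pairs for other values. The order edge, inside, around held in all 16 settings. The gap limits of 500 and 2000 bp could not change it, since they leave the overlapping pairs as they are. Bases of either library gave 6849 and 6970 overlapping H3K27me3 and H3K4me3 domains, 1918 inside and 4187 edge pairs, 3.94 Mb under both marks, a median overlap of 459 bp and median width ratios of overlapping to separate domains of 0.838 for H3K27me3 and 1.02 for H3K4me3. Whole merged peaks gave 479 around pairs, 3.12 Mb, 546 bp and ratios of 0.871 and 1.04. Peaks from the 25th percentile of q up gave 2204 and 2198 overlapping and 603 and 606 adjoining domains, 442 inside, 1466 edge and 327 around pairs, 1.26 Mb, 446 bp and ratios of 0.741 and 1.12. Equal peak numbers gave 2.04 Mb, 393 bp and ratios of 0.793 and 1.05. Median overlap was 410 bp with at least 150 bp shared, 384 bp without domains under 150 bp and 386 bp with domains under 500 bp apart joined, where the H3K4me3 ratio was 1.03. A gap under 500 bp left 468 H3K27me3 and 528 H3K4me3 adjoining domains, and one under 2000 bp gave 2836 and 2667 and an H3K27me3 ratio of 0.806. Flush ends within 100 bp gave 1748 edge and 1233 around pairs. Without domains that carry EMF2b or PLT5 (chosen after seeing the data) there were 1361 and 1390 overlapping and 611 and 604 adjoining domains, 412 inside, 853 edge and 141 around pairs, 0.607 Mb, 332 bp and ratios of 0.988 and 0.889. The H3K4me3 ratio thus lay on both sides of 1, and no direction is given for it. With 1 library left out the shared bases were 2.47 to 2.60 Mb, the median overlap 394 to 407 bp, the H3K27me3 ratio 0.811 to 0.835 and the H3K4me3 ratio 0.986 to 1.03.

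With the replicate number as a block, the same-numbered libraries gave 2.99 Mb, 424 bp and an H3K27me3 ratio of 0.835. The libraries share only a number: same-numbered libraries formed 5883 and 5758 pairs and the others 5719 and 5918. Causes of these shifts were not tested. The lists carry no depth, so domains near the threshold cannot be told from missed ones.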
